A study of Mus musculus with 31 samples.

Results

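The 10 genes described here are the mouse Fc gamma receptors Fcgr1, Fcgr2b, Fcgr3 and Fcgr4, their signalling chain Fcer1g, and 5 genes of macrophages and monocytes, Csf1r, Cd68, Cd14, Mrc1 and Cd163. They were found by gene name among 56605 probes, and 17 probes carried these names. All 17 probes passed the filter on dim spots, so that all 10 genes were among the 19797 genes tested. RNA of the distal colon of BALB/c mice was hybridised to 31 one-colour Agilent arrays. Every mouse was 4 to 6 weeks old at the start and had the chemically induced colorectal cancer model, in which an injection of the carcinogen azoxymethane (AOM) is followed by dextran sodium sulphate (DSS), an irritant that damages the colon lining, in the drinking water. DSS was given over the first days of the gavage period, so that mice taken at 2 days were still drinking it. The CRC mice received water by gavage, and the CRC + E171 mice received 5 mg/kg bw/day of E171, the food-grade titanium dioxide, by the same route. The arms are those of the labels' group fields, since the labels' treatment note names the water gavage for every sample. Colons were taken after 2, 7, 14 and 21 days. This gave 8 groups of 4 arrays (2 females and 2 males), save CRC at 21 days with 3 arrays (2 females and 1 male). No mouse without AOM and DSS is in the series, so each difference below is one between mice that all carried the model, and a level in normal colon was not analysed here.

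Fc gamma receptors bind the constant part of IgG antibodies on coated microbes or immune complexes. In the mouse Fcgr1, Fcgr3 and Fcgr4 are activating receptors that signal through the shared gamma chain encoded by Fcer1g, while Fcgr2b carries an inhibitory motif in its own tail and dampens the same cells. Macrophages of the colon are replaced from blood monocytes, depend on signals through the CSF1 receptor (Csf1r), and clear cells, particles and antibody complexes below the epithelium. In bulk tissue such as this, fewer cells of a type and less RNA per cell cannot be told apart.

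Fcgr2b and Fcgr3 lie on chromosome 1 with Fcgr4 between them, and have closely related extracellular parts. Probes of 3 receptors are shown, since what each probe reads matters to the comparison. Each is 60 bases long, written 5′ to 3′ as spotted, and lies on the minus strand of mm9, the build of the array's annotation. Fcgr1 has 1 probe, and Fcgr2b and Fcgr3 have 2 each that were averaged, of which 1 is shown. The 2 probes of a gene had a Pearson's r of 0.93 for Fcgr2b and 0.97 for Fcgr3. The Fcgr1 probe is at chr3:96088462-96088521, the Fcgr2b probe shown at chr1:172895833-172895892 and the Fcgr3 probe shown at chr1:172984129-172984188. Their GC content was 40% for Fcgr1, 41.7% for Fcgr2b and 43.3% for Fcgr3. An annotation of exons for this build was not used here. Whether a probe of Fcgr2b or Fcgr3 also reads the other gene was not tested.
Fcgr1: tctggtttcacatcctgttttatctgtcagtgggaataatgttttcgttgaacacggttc
Fcgr2b: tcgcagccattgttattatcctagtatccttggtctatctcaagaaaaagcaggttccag
Fcgr3: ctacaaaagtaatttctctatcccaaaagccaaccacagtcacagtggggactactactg

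The 250 bases before the transcription start are shown for 3 activating receptors, since all 3 were called lower at 7 days below. They are RefSeq sequences of GRCm38.p6, read 5′ to 3′ along the gene's strand. Fcgr1 is at chr3:96293970-96294219 on the minus strand, Fcgr3 at chr1:171059404-171059653 on the minus strand and Fcgr4 at chr1:171018676-171018925 on the plus strand. Capitals mark GAGGAA, the core bound by PU.1, a transcription factor of macrophages, on either strand (it reads TTCCTC on the other), and TTCNNNGAA, the form of site bound by STAT factors after interferon gamma. The 2 motifs do not overlap in these windows.
Fcgr1: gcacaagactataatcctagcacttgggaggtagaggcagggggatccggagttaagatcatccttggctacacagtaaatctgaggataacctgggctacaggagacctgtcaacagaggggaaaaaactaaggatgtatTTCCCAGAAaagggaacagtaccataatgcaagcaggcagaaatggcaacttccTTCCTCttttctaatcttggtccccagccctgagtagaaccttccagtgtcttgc
Fcgr3: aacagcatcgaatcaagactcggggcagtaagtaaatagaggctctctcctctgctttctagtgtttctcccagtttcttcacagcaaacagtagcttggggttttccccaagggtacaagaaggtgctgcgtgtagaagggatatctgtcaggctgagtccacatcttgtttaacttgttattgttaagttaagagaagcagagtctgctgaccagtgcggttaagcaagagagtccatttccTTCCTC
Fcgr4: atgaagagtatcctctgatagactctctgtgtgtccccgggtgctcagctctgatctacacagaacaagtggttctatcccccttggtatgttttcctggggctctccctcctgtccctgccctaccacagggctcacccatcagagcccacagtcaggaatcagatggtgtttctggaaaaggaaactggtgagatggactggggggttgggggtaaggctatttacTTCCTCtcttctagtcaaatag
GAGGAA begins 55 bases before the start in Fcgr1, 22 in Fcgr4 and 6 in Fcgr3. It was found in 5 of the 8 genes with a promoter entry, the others being Cd68 and Mrc1, and in 23.3% of all 32851 promoters of this length. TTCNNNGAA was found in Fcgr1 only among the 8, 109 bases before the start, and in 7.02% of all promoters. A match is a description of these letters and not evidence of binding.

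A level below is the log2 of a gene's signal relative to the 75th percentile of its array, so 0 lies at that percentile, and levels are compared only within a gene. In each array 67.4 to 78.9% of the probes were well above background. A gene was called a DEG where LIMMA gave a linear fold change of 1.5 or more and an unadjusted p under 0.05, and the p adjusted by the Benjamini-Hochberg method over all 19797 genes is given beside it. Some libraries stood apart from the rest. The median level of 9 neutrophil genes, after each gene's mean over the 31 arrays was subtracted, was 4.99 and 5.99 in the 2 CRC males at 7 days and 5.96 in 1 CRC + E171 male at 14 days, against 1.29 or less in the other 28 arrays. Genes of skeletal muscle, squamous epithelium or pancreatic acinar cells, which are not cells of the distal colon wall, were also high on single arrays. Among these were the 2 CRC males at 7 days (skeletal muscle value of 7.58 and squamous value of 7.43 in male 1, acinar value of 7.91 in male 2). Of the CRC females at 7 days, female 1 was among the 5 arrays high in acinar genes. Female 2 had a skeletal muscle value of 2.08, the next after male 1. On 1 of 15 arrays labelled male, male 2 of CRC at 14 days, the level of Xist lay in the range of the females. No 2 arrays were identical.

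At 7 days of exposure 8 of the 10 genes were down-regulated in CRC + E171 against CRC and none was up-regulated. They were Fcgr1, Fcgr2b, Fcgr3, Fcgr4, Fcer1g, Cd14, Mrc1 and Cd163. At this day 12.4% of all genes were called in either direction and 5.48% were called lower. All 10 genes had a lower mean in the exposed mice. The median of their log2 fold changes was -1.10, and that over all genes -0.01. In LIMMA 3327 of all genes had an unadjusted p under 0.05 at 7 days and none reached an adjusted p under 0.05, and the smallest adjusted p among the 10 was 0.197. Without the 2 CRC males, or with array weights (3.44% of all genes called), none of the 10 genes was called at 7 days, the former as given with the values by sex.

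The activating receptors were read first. Fcgr1, the high affinity receptor, measured -1.06, -1.29, -0.32 and 0.32 in the CRC arrays at 7 days, in the order female 1, female 2, male 1 and male 2. The CRC + E171 arrays measured -1.16, -2.11, -1.91 and -1.52. The 2 CRC males were the highest of all 31 arrays, while the females of CRC overlapped with the exposed mice. The log2 fold change was -1.09 ± 0.42 (SE), a 2.12-fold lower level, with an adjusted p of 0.218.

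Fcgr4, which binds IgG2 subclasses and is carried by monocytes, macrophages and neutrophils, measured -0.15, -0.52, 1.45 and 2.21 in CRC at 7 days. The exposed arrays measured -0.77, -1.47, -1.08 and -0.22. Both CRC males lay above every other array of the series, and the lowest CRC female lay below the highest exposed male. Fcgr4 was 3.1-fold lower in CRC + E171 (log2 fold change of -1.63 ± 0.53, SE, adjusted p of 0.197), the largest change among the 4 receptors.

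Fcgr3, the low affinity activating receptor, measured 1.06, 1.19, 2.69 and 2.85 in the CRC arrays against 0.67, 0.28, 0.71 and 1.16 in CRC + E171. Again the CRC males stood more than 1 unit above both CRC females. The fold change was 2.37 downward (-1.24 ± 0.35, SE, adjusted p of 0.197).

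Fcgr2b, the inhibitory receptor, changed by nearly the same amount as Fcgr3. Its level was 0.27, 0.34, 1.49 and 2.14 in CRC and -0.01, -0.68, -0.22 and 0.25 in CRC + E171. These groups did not overlap, and Fcgr2b was the only one of the 10 genes of which this was true at 7 days. Over all genes with a value on every array 4.85% did not overlap. The level was 2.34-fold lower in the exposed mice (-1.23 ± 0.35, SE, adjusted p of 0.197), and the exact permutation test gave p = 0.0286, the smallest that 4 against 4 arrays allow. The inhibitory receptor and the 3 activating ones were thus called in the same direction, though reading of both genes by the probes of Fcgr2b or Fcgr3 was not tested.

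Fcer1g, the gamma chain through which Fcgr1, Fcgr3 and Fcgr4 signal, was called lower as well. It measured 2.35, 2.48, 4.22 and 3.83 in CRC and 1.87, 1.83, 2.04 and 2.67 in CRC + E171. The male values in CRC were the highest of the 31 arrays, and the females of CRC lay within the range of the exposed group. The change was -1.11 ± 0.42 (SE), or 2.16-fold, with an adjusted p of 0.214.

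**Figure D1:**
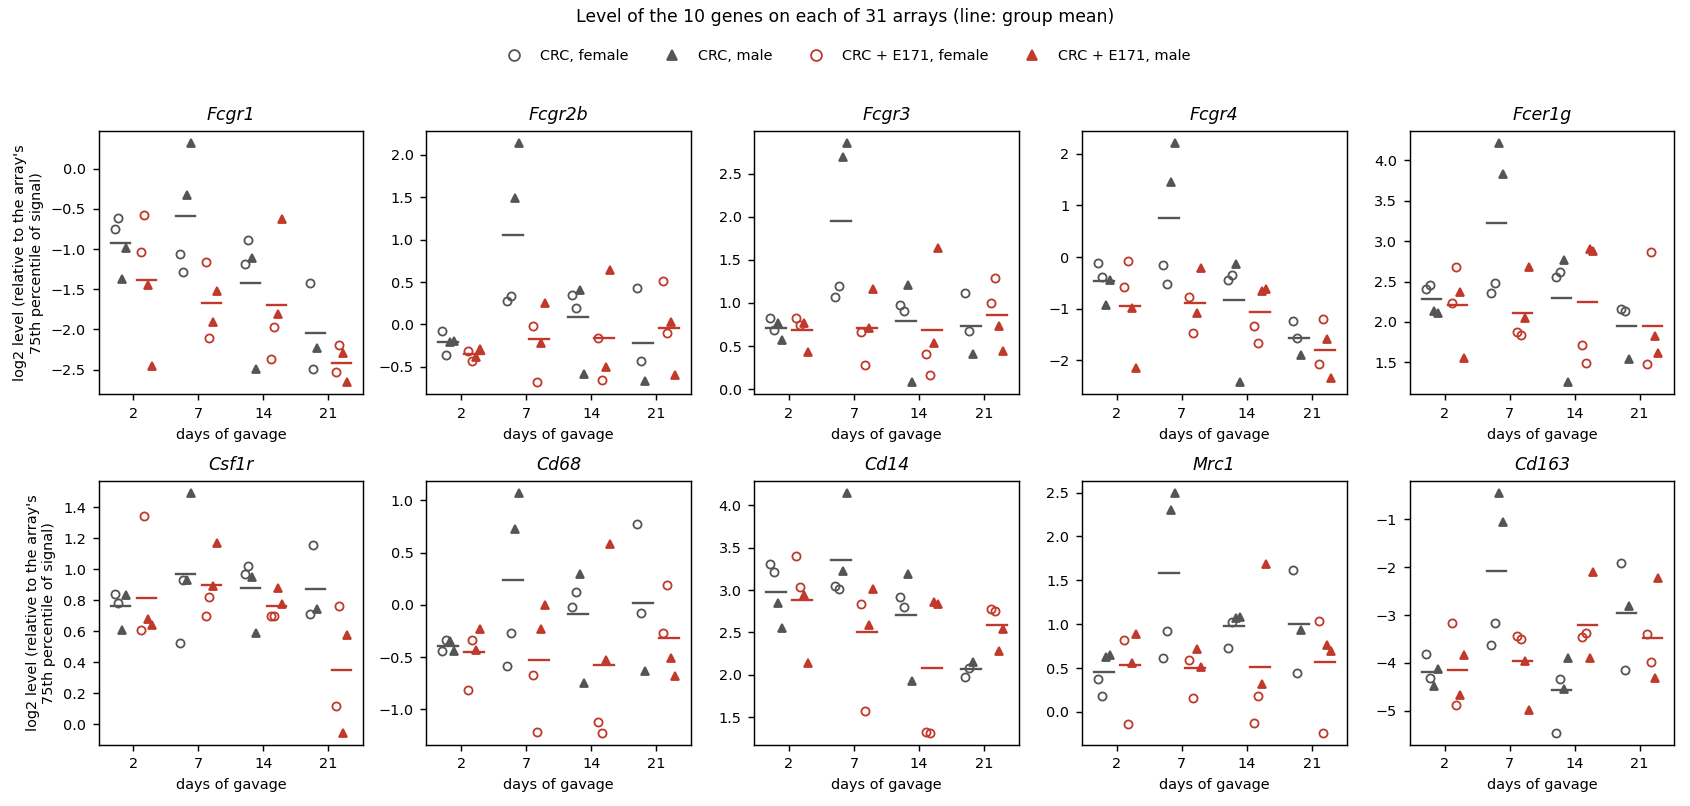
Level of each of the 10 genes on each of the 31 arrays, as log2 relative to the array's 75th percentile of signal, by days of gavage. Grey marks CRC and red CRC + E171, open circles are females, filled triangles are males and short lines are group means. The 2 CRC males at 7 days are the 2 highest arrays for 7 of the 10 genes.

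Csf1r, the receptor that macrophages need to live, was not called at 7 days. It measured 0.53, 0.93, 0.93 and 1.49 in CRC at 7 days and 0.70, 0.82, 0.89 and 1.17 in CRC + E171, and the groups overlapped throughout. The log2 fold change was -0.07 ± 0.20 (SE), with an adjusted p of 0.887. The 2 probes of Csf1r disagreed, with a Pearson's r of 0.23 over the 31 arrays and 7-day log2 fold changes of 0.27 in the dimmer and -0.42 in the brighter one, neither of which was called, so the averaged level of this gene is uncertain.

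Cd68, a lysosomal glycoprotein of macrophages, measured -0.58, -0.27, 0.72 and 1.07 in CRC and -0.67, -1.22, -0.24 and 0.00 in CRC + E171. Its log2 fold change of -0.77 ± 0.38 (SE, adjusted p of 0.308) was not called. Of its 3 probes 2 were called lower when fitted singly (-0.88 and -0.91), and the third was not (-0.52).

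Cd14, the co-receptor that hands bacterial lipopolysaccharide to TLR4, measured 3.05, 3.01, 3.22 and 4.14 in CRC and 2.83, 1.57, 2.59 and 3.02 in CRC + E171. Male 2 of CRC was the highest of all arrays and female 2 of CRC + E171 was among the 3 lowest. Cd14 was 1.81-fold lower (-0.86 ± 0.37, SE, adjusted p of 0.255). Its values by sex are given below.

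Mrc1, the mannose receptor CD206 of tissue macrophages, measured 0.61, 0.92, 2.30 and 2.50 in CRC and 0.59, 0.16, 0.72 and 0.52 in CRC + E171. The exposed arrays overlapped with the CRC females only. The level was 2.12-fold lower (-1.09 ± 0.39, SE, adjusted p of 0.207).

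Cd163, the scavenger receptor that takes up haemoglobin bound to haptoglobin, had the largest change of the 10 genes. It measured -3.63, -3.17, -0.45 and -1.05 in CRC and -3.43, -3.51, -3.95 and -4.98 in CRC + E171, so the 2 males of CRC stood apart and the females of both groups lay together. The fold was 3.72 downward (-1.89 ± 0.62, SE, adjusted p of 0.198). One of the 2 probes of Cd163 was well above background on only 18 of the 31 arrays, and the other on all 31. Both probes were called lower at 7 days (-1.79 and -2.0), with a Pearson's r of 0.87 between them.

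At the other days 0 or 1 of the 10 genes was called. At 2 days none of the 10 genes was called, where 1.72% of all genes were, and the log2 fold changes ran from -0.48 for Fcgr4 to 0.07 for Mrc1 with a smallest adjusted p of 0.999. At 14 days 9 of the 10 genes had a lower mean in CRC + E171 but none of these was called. With array weights 5 of the 10 genes were called at 14 days (Cd14, Cd68, Fcgr2b and Mrc1 lower, Cd163 higher), where 12.9% of all genes were called with these weights. Without CRC + E171 male 2, the array high in neutrophil genes, 3 were called (Cd14, Cd68 and Mrc1, all lower), where 10.8% of all genes were. Cd163 was the other gene, which was up-regulated 2.54-fold (log2 fold change of 1.35 ± 0.62, SE, adjusted p of 0.60), where 6.34% of all genes were called. Its levels at 14 days were -5.45, -4.34, -4.54 and -3.89 in CRC and -3.46, -3.38, -3.90 and -2.11 in CRC + E171, so that 3 of the 4 exposed arrays lay above all CRC arrays and male 1 lay just under the highest of them. With only the brighter probe of the gene the change was 0.98 and no longer called, and the call was also lost on leaving out CRC + E171 female 2 or male 2, CRC female 1 or CRC male 1.

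At 21 days none of the 10 was called, against 2.67% of all genes. Csf1r had the smallest p (log2 fold change of -0.52 ± 0.21, SE, adjusted p of 0.854) but changed by less than the 1.5-fold that a call needs. Fitted singly, its dimmer probe was called lower (-0.62) and its brighter one was not (-0.42). It measured 0.71, 1.16 and 0.75 in CRC (female 1, female 2, male 1) and 0.12, 0.77, -0.05 and 0.58 in CRC + E171, where female 1 and male 1 were the lowest of the 31 arrays. Cd14 was the sole gene of which the 21-day groups did not overlap, with 1.98, 2.08 and 2.15 in CRC below 2.78, 2.76, 2.28 and 2.54 in CRC + E171, and its change of 0.52 ± 0.40 (SE, adjusted p of 0.916) was not called. Over all genes 8.01% did not overlap at 21 days.

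**Figure D2:**
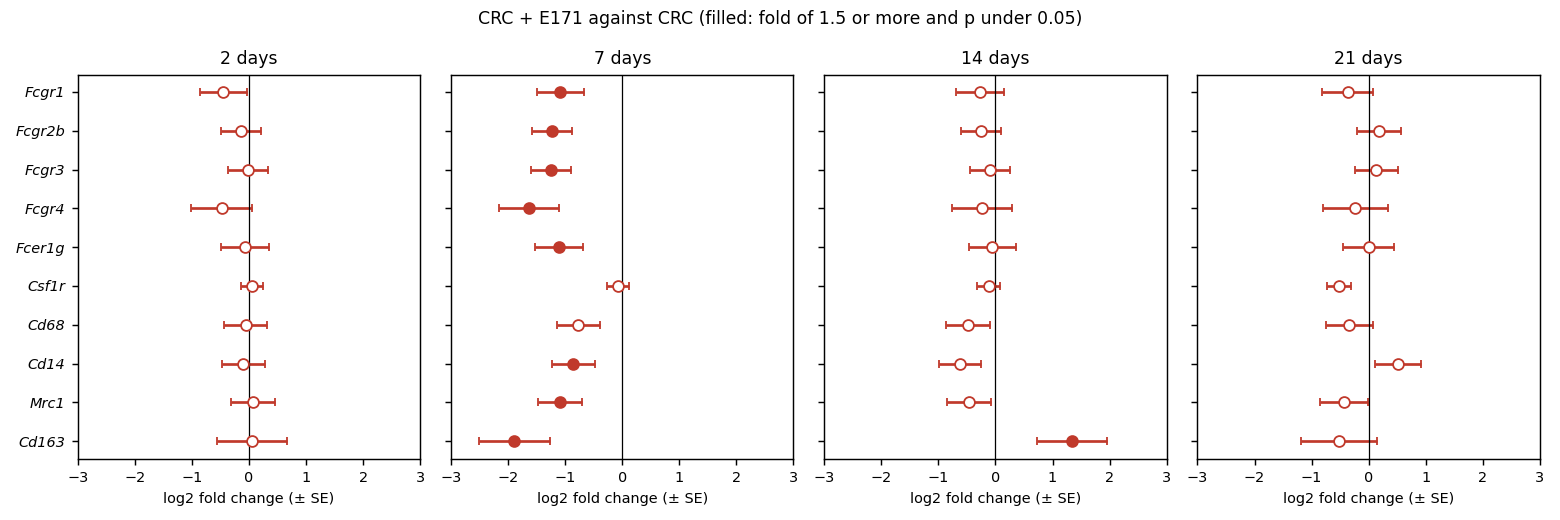
Log2 fold change of CRC + E171 against CRC, with its SE, for the 10 genes at 2, 7, 14 and 21 days; filled points passed the fold of 1.5 and p under 0.05. Filled points are the 8 genes below 0 at 7 days and Cd163 above 0 at 14 days.

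Averaged over the 4 days, all 10 genes were lower in CRC + E171. Fcgr4 was the only one called (log2 fold change of -0.65 ± 0.27, SE, adjusted p of 0.496), where 1.79% of all genes were called. The call was lost without CRC male 2 at 7 days and without CRC + E171 male 2 at 2 days, as well as with array weights. Fcgr1 (-0.54 ± 0.21, SE) came next and stayed just under the fold of 1.5, and Mrc1 (-0.48 ± 0.20, SE) and Cd68 (-0.41 ± 0.19, SE) also had an unadjusted p under 0.05.

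Each slide held CRC arrays of 1 day beside CRC + E171 arrays of another day, so within slides the exposure could be compared only over pairs of days. Over 7 and 21 days Fcgr1 (-0.69 ± 0.27, SE), Fcgr4 (-0.94 ± 0.42, SE) and Mrc1 (-0.71 ± 0.32, SE) were down-regulated, where 2.38% of all genes were called, and the smallest adjusted p was 0.747. None of the 10 was called there without CRC male 2 or CRC + E171 male 1 of 7 days, without CRC female 1 of 21 days, or with array weights. Over 2 and 14 days only Cd163 was called, upward (0.70 ± 0.32, SE, adjusted p of 0.507), where 3.01% of all genes were called, and this call was lost on leaving out any 1 of 10 arrays. Within the 1 scan day that held arrays of both groups at 7 days, 2 against 2, 9 of the 10 genes were lower in CRC + E171, with differences from -1.65 for Cd163 to 0.07 for Csf1r. The CRC arrays of that scan day were female 1 and male 1, the latter high in neutrophil genes. Read the same way, 5 of the 10 genes were lower at 2 days, 8 at 14 days and 7 at 21 days. The share over all genes is not given. A test of whether the effect of E171 differed between days gave an unadjusted p under 0.05 for Cd163 and Fcgr3, 2 of the 10 genes, and for 6.52% of all genes. The smallest adjusted p of the 10 was 0.717, so that the days were not shown to differ for any of them.

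The 7-day calls were lost without the 2 CRC males, as given below, while Cd14 changed by nearly the same amount in both sexes. The readings of single sexes were chosen after the data were seen. In a fit by labelled sex, 2 males against 2 males, 9 of the 10 genes were called lower, all but Csf1r, where 27.2% of all genes were called and 12.7% were called lower. Fcgr1, Fcgr2b, Fcgr3, Fcgr4, Fcer1g, Mrc1 and Cd163 had an adjusted p under 0.05, which in males 15.3% of all genes had. In males Cd163 was 13.1-fold lower (adjusted p of 0.00391), Fcgr4 5.58-fold (adjusted p of 0.00727) and Fcgr3 3.57-fold (adjusted p of 0.00188). In the females none of the 10 was called, where 2.01% of all genes were, with log2 fold changes from -0.83 for Cd14 to 0.03 for Csf1r. The log2 fold changes in females were -0.79 ± 0.57 (SE) for Fcgr4, -0.65 ± 0.41 (SE) for Fcgr2b, -0.65 ± 0.34 (SE) for Fcgr3 and -0.07 ± 0.78 (SE) for Cd163, none of which passed the test.

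The difference between the sexes was itself tested. It was -3.64 ± 1.10 (SE, adjusted p of 0.0734) for Cd163, -1.39 ± 0.64 (SE, adjusted p of 0.259) for Mrc1 and -1.18 ± 0.48 (SE, adjusted p of 0.196) for Fcgr3. By the rule of fold and unadjusted p these 3 genes were called, where 18.0% of all genes were. None of the 10 reached an adjusted p under 0.05, which 3.71% of all genes did. For Cd14 the sexes differed by -0.05 ± 0.57 (SE), with changes of -0.88 in males and -0.83 in females. With 2 mice of each sex in a group, sex cannot be told apart from the 2 particular males.

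**Figure D3:**
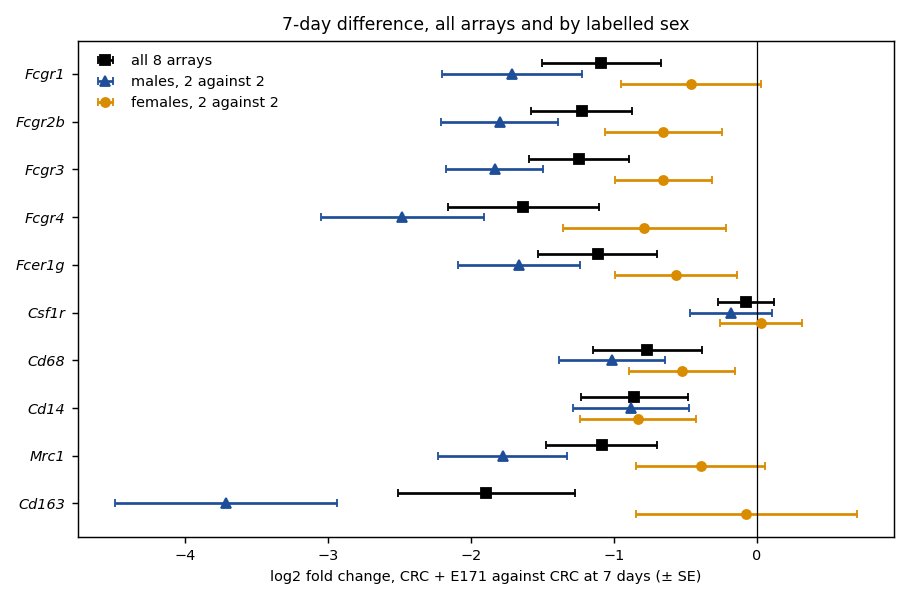
Log2 fold change of CRC + E171 against CRC at 7 days, with its SE, from all 8 arrays, from the males alone and from the females alone. The changes in males reach -3.72 for Cd163, and those in females lie between -0.83 and 0.03.

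When both CRC males at 7 days were left out, a choice made after the data were seen, the changes of the 8 called genes shrank to between -0.57 (Cd163) and -0.27 (Mrc1). The CRC arm then held females only, against both sexes in CRC + E171, so sex was not balanced between the arms. Fcgr4 then had -0.55 ± 0.54 (SE), Fcgr1 -0.50 ± 0.48 (SE), Fcgr2b -0.47 ± 0.34 (SE) and Fcgr3 -0.42 ± 0.33 (SE), and the adjusted p of each was 1.0. All 8 kept a negative sign and none was called. With male 2 alone left out 4 of the 10 genes were called. The share of all genes called is not given for either setting, so these counts are not set against it.

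At 14 days Cd163, the gene called over all arrays, was called in neither sex alone. In the females 4 other genes were called, where 11.6% of all genes were called and 5.14% were called lower. Cd14 (-1.53 ± 0.41, SE, adjusted p of 0.0975), Cd68 (-1.22 ± 0.37, SE), Fcgr1 (-1.13 ± 0.49, SE) and Fcer1g (-0.99 ± 0.43, SE) were lower, and in males none of the 10 was called, where 2.22% of all genes were. The exposed females measured 1.33 and 1.32 for Cd14, the 2 lowest of all arrays, against 2.91 and 2.80 in the CRC females. The difference between sexes was called for 6 of the 10 genes, where 8.07% of all genes were called. They were Fcgr1, Fcgr3, Fcgr4, Fcer1g, Cd68 and Cd14. It had its smallest adjusted p, 0.349, for Cd14, and it passed the adjusted threshold for none of the 10. The CRC male 2 array, whose Xist level was that of a female, and the CRC + E171 male 2 array, high in neutrophil genes, are both in this comparison.

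The time course of the model itself was read in the CRC mice, whose 7-day arrays also entered the comparisons above, so that these results are not independent of each other. From 2 to 7 days 6 of the 10 genes were up-regulated and none was down-regulated, where 13.4% of all genes were called and 7.21% were called higher. Cd163 rose 4.32-fold (adjusted p of 0.197), Fcgr2b 2.41-fold, Fcgr3 2.36-fold, Fcgr4 2.31-fold, Mrc1 2.18-fold and Fcer1g 1.92-fold. For Fcgr3 the CRC arrays of 2 days measured 0.83, 0.68, 0.77 and 0.58, all below the 4 arrays of 7 days. Fcgr2b, Fcgr3 and Cd163 did not overlap between these days, which was true of 4.74% of all genes. From 7 to 14 days 5 genes were down-regulated and none was up-regulated, where 7.40% of all genes were called and 3.17% were called lower. They were Cd163 (5.58-fold), Fcgr4 (2.99-fold), Fcgr3 (2.23-fold), Fcgr2b (1.95-fold) and Fcer1g (1.90-fold), with adjusted p-values of 0.487 to 0.499. Without the 2 CRC males no gene of the 10 was called in either step, and with array weights Fcgr2b and Fcgr3 were called higher in the first step (6.04% of all genes called) and Cd163 lower in the second (6.32%).

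From 2 to 21 days Fcgr1 fell 2.17-fold (-1.12 ± 0.45, SE) and Cd14 fell 1.88-fold (-0.91 ± 0.40, SE) in CRC, where 3.59% of all genes were called and both had an adjusted p of 0.901. The CRC levels of Fcgr1 were -0.75, -0.61, -1.38 and -0.99 at 2 days and -1.42, -2.49 and -2.23 at 21 days, so the groups did not overlap. Neither did those of Cd14 and of Fcgr4, which was not called, and over all genes 10.7% did not overlap. Without CRC male 1 of 21 days, or with scan day as a block, none of the 10 was called in CRC. Among the exposed mice none of the 10 was called from 2 to 7 days (3.27% of all genes) or from 7 to 14 days (2.65%). From 2 to 21 days only Fcgr1 was called in them, down 2.05-fold (-1.03 ± 0.42, SE, adjusted p of 0.291), where 7.39% of all genes were called, and not without female 1 or female 2 of CRC + E171 at 2 days. Fcgr1 was thus lower at 21 than at 2 days in both arms, and all 4 exposed arrays at 21 days (-2.52, -2.19, -2.29 and -2.66) were among the 9 lowest of the series.

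Ordered by their means over the 8 groups, all 10 genes were highest in CRC at 7 days. The lowest group differed by gene. It was CRC + E171 at 21 days for Fcgr1, Fcgr4 and Csf1r, CRC + E171 at 2 days for Fcgr2b and Fcgr3, CRC + E171 at 14 days for Cd68, CRC at 21 days for Fcer1g and Cd14, CRC at 2 days for Mrc1 and CRC at 14 days for Cd163. Of the 7 gaps between neighbouring groups in the order, none exceeded the pooled SD for Fcgr1, Cd68, Cd14 and Cd163, and 1 did for each of the other genes. In 5 of these 6 genes it was the gap below CRC at 7 days, and for Csf1r it was the gap above CRC + E171 at 21 days. From the lowest to the highest of the 31 arrays the spread was 32.1-fold for Cd163, 24.8-fold for Fcgr4, 6.64-fold to 7.90-fold for Fcgr1, Fcgr2b, Fcgr3, Fcer1g, Cd14 and Mrc1, 4.91-fold for Cd68 and 2.92-fold for Csf1r.

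Genes that work with the receptors were read from lists by role, and each count at 7 days stands against the 12.4% of all genes called, 5.48% lower and 6.93% higher. Of 23 genes of Fc receptor signalling 1 was called higher and 1 lower at 7 days, with a median log2 fold change of -0.38. Tyrobp, an adaptor of the same kind as the gamma chain, was down-regulated (-0.81 ± 0.35, SE), and Blnk, a B cell adaptor, was up-regulated (0.65 ± 0.31, SE). The kinase Syk, which docks on the gamma chain, had 0.23 ± 0.41 (SE) and the phosphatase Inpp5d, which acts for Fcgr2b, had -0.31 ± 0.48 (SE). Neither of these was called, and whether they differed from the receptors was not tested.

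Among 12 other Fc receptors only Pigr, which carries IgA and IgM across the epithelium, was called, and it was up-regulated (2.05 ± 0.61, SE). Fcgrt, the neonatal Fc receptor, had -0.38 ± 0.28 (SE) and Fcer1a, the IgE binding chain that also uses Fcer1g, had -0.82 ± 0.81 (SE). Of the IgG heavy chain genes only Ighg3 was measured (-0.51 ± 0.87, SE).

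Of 12 genes of the CSF1 axis 5 were called lower and none higher. Among them were the ligands Il34 (-0.93 ± 0.33, SE) and Csf1 (-0.59 ± 0.24, SE) of the CSF1 receptor, the granulocyte factor Csf3 (-5.25 ± 1.5, SE) and the transcription factor Cebpb (-1.87 ± 0.51, SE). Spi1, which encodes PU.1, had -0.42 ± 0.44 (SE). In females alone Il34 was also lower (-1.01), while Csf3 (-1.71), Cebpb (-0.40) and Csf1 (-0.18) did not pass the test there.

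Of 14 genes of lipopolysaccharide sensing, the field of Cd14, 1 was called at 7 days. It was Tlr1 (0.81 ± 0.39, SE), which was up-regulated, and Tlr4 (0.16 ± 0.26, SE) and Ly96 (0.34 ± 0.18, SE), which form the receptor, were not. The median of the list was 0.11.

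Of 15 genes of haemoglobin handling and scavenging, the field of Cd163 and Mrc1, 6 were called lower and 1 higher. The lower ones were Clec10a (-1.73 ± 0.52, SE), the haem oxygenase Hmox1 (-1.63 ± 0.56, SE), the scavenger receptor Msr1 (-1.04 ± 0.49, SE), the metal transporter Slc11a1 (-1.01 ± 0.40, SE), Mrc2 (-0.96 ± 0.45, SE) and Lrp1 (-0.71 ± 0.26, SE). Slc40a1, the iron exporter ferroportin, was up-regulated (1.78 ± 0.59, SE). Haptoglobin (Hp), the carrier that Cd163 takes up, had -1.94 ± 1.33 (SE) and was not called. The median level of the list was -0.19, -0.06, 1.18 and 1.27 in the CRC arrays (2 females, then 2 males) and -0.20 to 0.03 in CRC + E171, so that the CRC males stood apart and the females of the groups lay together.

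Markers of the cells that could hold these transcripts were read beside them. Of 12 markers of resident macrophages 3 were called lower (Folr2 with -0.91, C1qb with -0.73 and C1qa with -0.64) and 1 higher (Cx3cr1 with 1.10), and Adgre1, an adhesion receptor of macrophages, had -0.17 ± 0.30 (SE). The median level of the list, centred as above, ran from 0.10 to 0.83 in CRC and from -0.35 to 0.35 in CRC + E171 at 7 days. Of 15 markers of inflammatory monocytes 3 were called lower (Chil3 with -3.84, Clec4d with -3.01 and Ccr2 with -1.15), and the list measured -0.23, 0.01, 1.09 and 1.80 in CRC and ran from -0.75 to 0.62 in CRC + E171. The 2 CRC males were above all exposed arrays and the CRC females within their range.

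Neutrophils, which also carry Fcgr3, Fcgr4, Fcer1g and Cd14, varied in the same arrays. Of 9 neutrophil markers 4 were called lower at 7 days (Ltf with -3.96, Mmp8 with -3.33, Retnlg with -2.40 and Camp with -2.09), S100a8 had -4.25 ± 2.21 (SE), and the median of the list was -2.98. The list value was -0.98, -0.20, 4.99 and 5.99 in the CRC arrays and -1.26, -1.89, -1.35 and 1.29 in CRC + E171. The 8 epithelial markers were all called higher at 7 days, with a median of 1.45, and their list value was 0.25, 0.14, -3.53 and -1.86 in CRC and 0.06, -0.02, 0.19 and 0.30 in CRC + E171. The 2 CRC males at 7 days, highest of all arrays in the mean of the 10 genes, were thus high in neutrophil genes and low in epithelial genes. Over the 28 arrays not high in neutrophil genes, Pearson's r with the epithelial list ran from -0.34 for Csf1r to 0.13 for Fcgr3. Of the markers of other cells, called at 7 days were 2 of 8 of dendritic cells (higher), 1 of 9 of mast cells, 1 of 7 of fibroblasts, 5 of 7 of skeletal muscle and 2 of 9 of pancreatic acinar cells (all lower), and none of 8 of B and plasma cells, 7 of T cells, 6 of NK cells, 4 of eosinophils, 7 of smooth muscle and 7 of squamous epithelium. The part of any of these cells in the result was not tested.

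**Figure D4:**
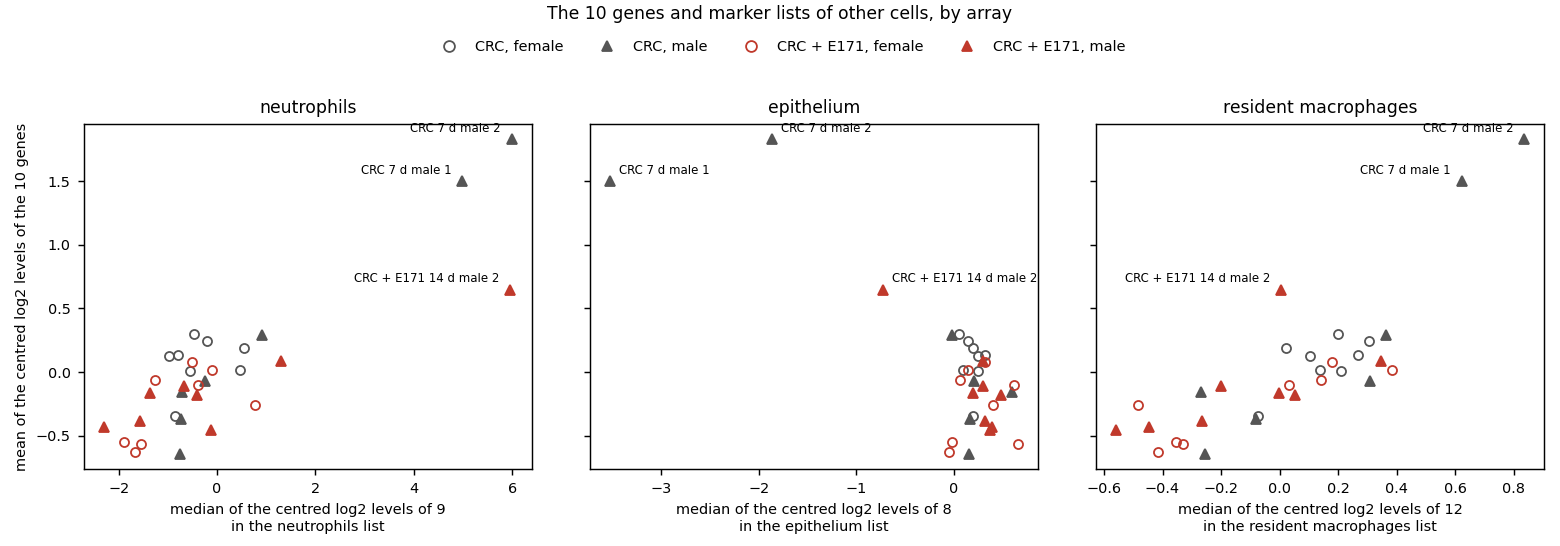
Mean of the centred log2 levels of the 10 genes against the median centred log2 level of 9 neutrophil, 8 epithelial and 12 resident macrophage markers, 1 point per array. The 2 CRC males at 7 days and male 2 of CRC + E171 at 14 days lie at the upper end for the 10 genes and for the neutrophil list, and the CRC males at the low end of the epithelial list.

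Correlations among the 10 genes over the 31 arrays are given as a description, since the arrays share their groups and the 3 arrays high in neutrophil genes. Pearson's r over the 45 pairs ran from 0.04 to 0.94 with a median of 0.59. Over the other 28 arrays it ran from -0.48 to 0.90 with a median of 0.36. Fcgr1 with Fcgr4 (0.91 over 31 and 0.90 over 28 arrays), Fcgr2b with Fcgr3 (0.94 and 0.82) and Fcer1g with Fcgr4 (0.90 and 0.83) stayed close without these arrays. Cd163 did not, and over the 28 arrays its r was negative with every gene of the 10 save Mrc1. Its r with the neutrophil list went from 0.54 to -0.41 when the 3 arrays were left out, while that of Fcgr3 went from 0.86 to 0.59 and that of Csf1r from 0.43 to 0.39.

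**Figure D5:**
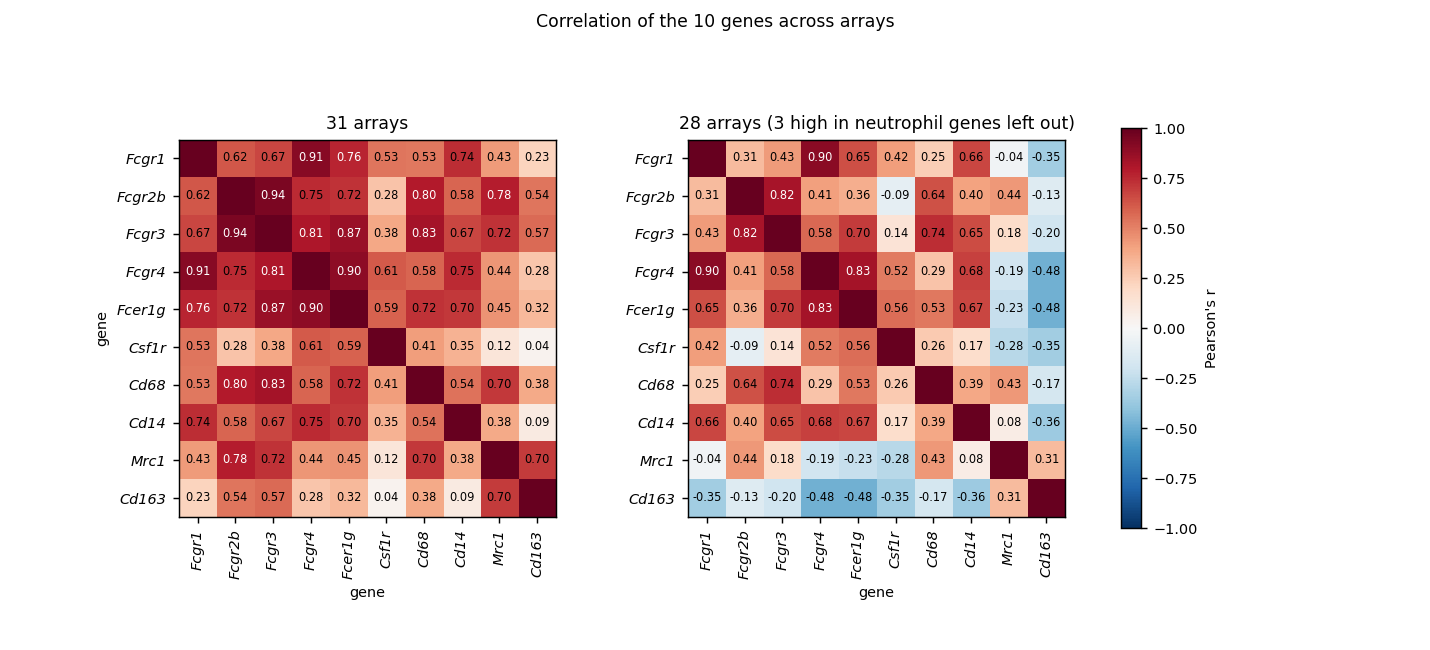
Pearson's r between the 10 genes over 31 arrays (left) and over the 28 arrays that remain without the 3 high in neutrophil genes (right). The blocks of Fcgr1 with Fcgr4 and of Fcgr2b with Fcgr3 stay dark red on both sides, and the row of Cd163 turns from red to blue for every gene save Mrc1.

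The genes most like the mean of the 10 over 31 arrays were Clec4a1 (Pearson's r of 0.94), a lectin receptor of myeloid cells, Pdpn (0.93), Alox5ap (0.92), Ifitm6 (0.92) and Mmp10 (0.91). Over 28 arrays their r was 0.82, 0.74, 0.65, 0.67 and 0.69. For single genes the closest were Lrrc25 for Fcgr4 (0.95), Tyrobp for Fcer1g (0.94), Dbn1 for Mrc1 (0.94), Renbp for Cd68 (0.89), F13a1 for Cd163 (0.86), Rela for Csf1r (0.85) and Sting1 for Cd14 (0.84), and for Fcgr1, Fcgr2b and Fcgr3 it was another Fc gamma receptor: Fcgr4, Fcgr3 and Fcgr2b.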

How the data were processed

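Distal colon RNA of 31 mice was labelled with Cy3 and hybridised to 1-colour arrays, read by the authors with Feature Extraction 10.7.3.1. The deposited scanner files hold each spot's processed signal, a background-subtracted intensity not normalized between arrays. The deposited table of 42568 probes holds log2 values that the authors filtered, imputed by nearest neighbours and normalized (median per array of 9.43 to 9.67) by a method not given in the sources used here. It served as an alternative.

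The intensity was converted to log2 and the array's 75th percentile subtracted, without spots flagged as outliers. Probes unflagged and well above background in at least 60% of the arrays of a group, with a mean log2 signal of 4 or more, were kept (42787), and probes of a gene, matched to RefSeq, were averaged. One model over the 8 groups was fitted with limma 3.58.1 in R 4.3.3 and tested on simulated data. Separate models gave the comparisons within slides and by labelled sex. CRC and CRC + E171 always had array columns of their own, so that column and exposure cannot be told apart. Exact permutation tests were two-sided.

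The 10 genes and the gene lists were chosen with earlier results of these data known. Genes named from the lists are those called at 7 days and the best known members of each, some of which are not reported here. Alternatives were the authors' table, quantile normalization, normexp with an offset of 50, other filters, the brightest probe, array weights, sex, slide, scan day or replicate as terms, other thresholds and leaving out arrays.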

Additional observations from a re-analysis of the deposited data

Results flagged for a closer look

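In 70 groups of 4 arrays (10 genes in 7 groups) the highest or lowest array was tested with Dixon's ratio, its gap to the nearest other array over the range of the group, and 5 ratios exceeded Dixon's critical value. Chance puts about 1 in 20 groups over it. In CRC at 14 days male 2 was the lowest array for Fcgr4 (ratio of 0.868, level of -2.43 against -0.44 or more in the other 3), for Fcer1g (0.862, level of 1.25) and for Csf1r (0.841, level of 0.59). This is the array whose Xist level lay in the range of the females. Mrc1 was lowest in female 1 of the same group (0.843, level of 0.73). In CRC + E171 at 2 days female 2 was the highest array for Csf1r (0.900, level of 1.34), and the same array had the highest pancreatic acinar value of the series, 10. The part of the acinar genes in this level was not tested.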

How the results depend on the processing

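The number of the 10 genes that were called is given under each alternative that moved it, and no called change turned its direction under any. The share of all genes called also moved. With array weights it went from 12.4% to 3.44% at 7 days and from 6.34% to 12.9% at 14 days. The share is not given beside the counts of this section, so a moved count is not read as particular to the 10 genes. With an adjusted p under 0.05 in place of the unadjusted p, 0 genes were called in every comparison between groups. With array weights the count was 0 at 7 days (8 before), 5 at 14 days (1 before), 1 at 21 days (0 before), 0 for the mean of 4 days (1 before), 0 within slides for 7 and 21 days (3 before) and 3 for 2 and 14 days (1 before). In the time courses the weights gave 2 in CRC from 2 to 7 days (6 before), 1 from 7 to 14 days (5 before), 4 from 2 to 21 days (2 before) and 2 in CRC + E171 from 2 to 21 days (1 before). A log2 fold change of 1.5 left 2 genes at 7 days, 1 in CRC from 2 to 7 days, 2 in CRC from 7 to 14 days and 0 at 14 days, in both steps from 2 to 21 days, in the mean of 4 days and in both comparisons within slides. The authors' table gave 8 at 7 days, 1 at 21 days, 1 in CRC from 2 to 21 days and 0 within slides for 2 and 14 days. The brightest probe of each gene gave 0 at 14 days and 0 within slides for 2 and 14 days, where quantile normalization and sex as a covariate also gave 0. With only the arrays of the groups compared 2 genes were called in CRC from 7 to 14 days and 4 from 2 to 21 days. Scan day as a block gave 6 at 7 days and 0 in CRC from 2 to 21 days. At an adjusted p under 0.05, 1 gene differed between the sexes at 7 days with normexp (0 before).

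Without the 2 CRC males at 7 days the count was 0 at 7 days, in CRC from 2 to 7 and from 7 to 14 days, in the mean of 4 days and within slides for 7 and 21 days, and 4 in CRC from 2 to 21 days. Without the 3 arrays high in neutrophil genes it was the same in these, 3 at 14 days and 0 within slides for 2 and 14 days. Without the 5 arrays high in squamous genes it was 3 at 14 days, 1 in CRC from 2 to 21 days and 0 for the mean and in both comparisons within slides. Without the 5 arrays high in acinar genes it was 1 at 21 days, 0 in CRC + E171 from 2 to 21 days and 5 within slides for 7 and 21 days. Without the array of doubted sex it was 2 at 14 days, 3 in CRC from 7 to 14 days and 2 for the mean. Females alone gave 0 at 7 days and 4 at 14 days, and males alone 9 at 7 days and 0 at 14 days. The settings without the CRC males, without the arrays high in marker genes and of single sexes were chosen after seeing the data.

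Leaving out 1 array at a time gave 0 at 2 days, 4 to 9 genes at 7 days (4 without CRC male 2), 0 to 3 at 14 days (0 without CRC + E171 female 2, CRC female 1 or CRC male 1, and 3 without CRC + E171 male 2), 0 to 1 at 21 days and 0 to 2 for the mean of 4 days. Within slides it gave 0 to 6 for 7 and 21 days and 0 to 1 for 2 and 14 days. The time courses had 4 to 7 in CRC from 2 to 7 days, 3 to 7 from 7 to 14 days, 0 to 3 from 2 to 21 days and 0 to 2 in CRC + E171 from 2 to 21 days. At an adjusted p under 0.05 the sexes differed for 0 to 1 gene at 7 and at 14 days.

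The labels do not tie same-numbered animals of the 2 arms to each other, and of 15 pairs 8 correlated by over 0.1 (range of -0.18 to 0.48). Arrays numbered 1 were on slides 1 to 4 (scan days 1 and 2) and those numbered 2 on slides 5 to 8 (scan days 2 and 3), so the number goes with the hybridisation. With a block for each sex and number 8 genes were called at 7 days (smallest adjusted p of 0.188), and no count of the other comparisons moved by over 1.5 times. Dim spots limit Cd163 most, since 1 of its 2 probes was well above background on 18 of 31 arrays.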
